A study of Mus musculus with 4 samples.

Results

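The mesothelium is the sheet of flattened cells that covers the surfaces of the diaphragm towards the chest and the abdomen. The genes described here are 10 markers of that lining, namely Msln, Upk3b, Upk1b, Wt1, Krt7, Krt8, Krt18, Krt19, Lrrn4 and Slpi. They were found as all probe sets whose gene symbol in the array's platform annotation is one of these names. All 10 genes were on the array, among 18194 genes named there by probe sets of 1 gene each, and they were read by 16 of its 45101 probe sets, while 0 of the probe sets annotated to several genes held one of these names. The samples were total RNA of the mouse left hemi-diaphragm, with 2 arrays of the synaptic region, the band in which the motor nerve contacts the fibres, and 2 arrays of the non-synaptic region. The labels give no strain, genotype, age, sex or treatment for either region. They do not tell whether different animals gave the 2 arrays of a region, so a p-value here reflects array-to-array spread alone, and that may be technical. The titles of the arrays end in e1_le1 or e1_le2 within each region, and these are called number 1 and number 2 here. The labels do not explain these endings.

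Mesothelial cells are epithelial in form, with keratin filaments and tight junctions, but derive from mesoderm, and they secrete the fluid that lets the organs of the chest and abdomen glide. Their surface carries mesothelin and uroplakins, membrane proteins first known from the bladder, and many express the transcription factor Wt1. Some of the 10 genes are also known from other cells, such as Krt8 and Krt19 in the filaments that anchor the contractile apparatus of muscle fibres to their membrane. In RNA of a whole piece of tissue, fewer cells of a type and less RNA per cell cannot be told apart.

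Keratins of simple epithelia form filaments in which a type II chain, such as Krt7 or Krt8, joins a type I chain, such as Krt18 or Krt19. Krt8 and Krt18 are usual partners and lie close together on chromosome 15, on opposite strands, with 23874 bases between their RefSeq starts. The promoters of 6 of the 10 genes were in the RefSeq table of assembly GRCm38.p6. The sequences below run from 250 bases before to 10 bases after the annotated start. Those of the 3 keratins are shown because these genes had the lowest region differences of the 10 and, for Krt8 and Krt18, because of their partnership, and that of Upk3b is shown as the surface marker measured with the smallest error. Capitals mark matches on either strand to TATAA (TATA box), GGGCGG (GC box), CCAAT or GCGNGGGCG (a site of WT1 and the EGR factors).
Krt8, chr15:102004333-102004592, minus strand: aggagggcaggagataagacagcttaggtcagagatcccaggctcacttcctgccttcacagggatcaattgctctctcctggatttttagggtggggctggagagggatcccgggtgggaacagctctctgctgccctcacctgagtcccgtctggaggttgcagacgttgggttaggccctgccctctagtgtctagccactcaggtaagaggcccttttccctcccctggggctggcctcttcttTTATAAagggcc
Krt18, chr15:102027966-102028225, plus strand: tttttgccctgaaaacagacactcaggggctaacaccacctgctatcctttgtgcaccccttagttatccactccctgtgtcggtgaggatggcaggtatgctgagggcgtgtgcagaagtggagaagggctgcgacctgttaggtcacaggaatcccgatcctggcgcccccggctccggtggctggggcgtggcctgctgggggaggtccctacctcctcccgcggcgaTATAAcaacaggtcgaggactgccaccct
Krt7, chr15:101412153-101412412, plus strand: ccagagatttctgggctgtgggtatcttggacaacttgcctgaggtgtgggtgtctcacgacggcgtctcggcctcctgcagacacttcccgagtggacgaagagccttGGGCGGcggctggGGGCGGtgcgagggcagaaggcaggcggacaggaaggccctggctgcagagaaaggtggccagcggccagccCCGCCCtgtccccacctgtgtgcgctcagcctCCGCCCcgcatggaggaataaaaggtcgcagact
Upk3b, chr5:136038246-136038505, plus strand: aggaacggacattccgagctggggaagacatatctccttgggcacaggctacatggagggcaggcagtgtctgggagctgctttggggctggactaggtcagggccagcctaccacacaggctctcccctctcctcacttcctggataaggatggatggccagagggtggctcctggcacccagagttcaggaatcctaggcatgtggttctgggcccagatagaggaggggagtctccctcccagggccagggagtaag

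The letters TATAA lie across the annotated start of Krt8, where they overlap a match on the other strand, and from 19 to 15 bases before that of Krt18. Krt7 holds 4 GC boxes, and the window of Upk3b holds none of the motifs. Of the 32851 promoters in the table, 23.3% hold TATAA, 33.4% the GC box, 34.6% CCAAT and 4.91% the WT1 and EGR site in a window of this length. The windows of Lrrn4 and Slpi, the other genes in the table, hold none of them either. A match is a description of letters, not of a bound site.

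The comparison asks whether transcripts of the lining are at different levels in the band of synapses and in muscle outside it. Intensities are on the array's linear scale as deposited, differences are synaptic minus non-synaptic on the log2 scale, and ± after a difference is the standard error of the limma fit with n = 2 arrays per region. All 16 probe sets passed the filter on low values, a mean log2 value of 8.87, so no member was left out. None of the 10 genes passed the limma test over all 26480 probe sets (adjusted p = 0.9999 for each, unadjusted p from 0.311 to 0.997). An unadjusted limma p under 0.05 was found for 0 of the 10 and for 261 of the 26480 probe sets. Over all probe sets tested, 0.00378% were called higher and 0.00755% lower in the synaptic region, so the test called few probe sets of any kind. The differences of the 10 genes ran from -0.30 to 0.02, with a median of -0.12 against -0.01 for all probe sets tested, and 8 of them were below 0, as were 52.3% of all probe sets.

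**Figure D1:**
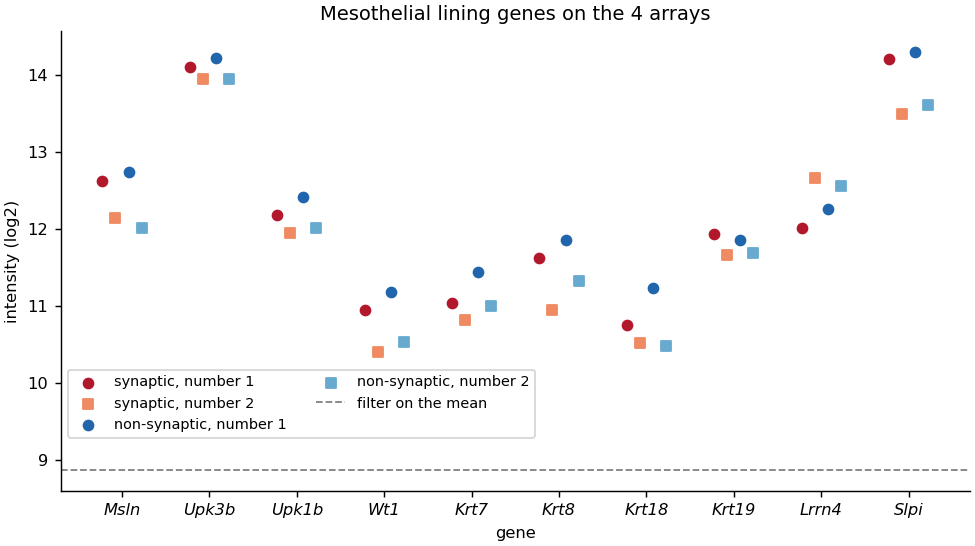
Intensity (log2) of the 10 mesothelial lining genes on each array, with 1 point per array. Circles are the arrays numbered 1 and squares those numbered 2, red tones are synaptic and blue tones non-synaptic, and the dashed line is the filter at 8.87. The circles lie above the squares for every gene but Lrrn4, and red and blue points overlap for each gene.

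Among the surface proteins, Msln encodes mesothelin, a membrane-anchored glycoprotein that binds the mucin Muc16. Its intensity was 6306 and 4540 on the synaptic arrays and 6883 and 4153 on the non-synaptic arrays. The arrays of the regions interleave, with both of number 1 high and both of number 2 low. The difference was 0.001 ± 0.33, and the 95% interval of the synaptic over non-synaptic ratio ran from 0.563 to 1.78.

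Upk3b encodes uroplakin 3B, a glycoprotein of the apical membrane. Its intensity was 17648 and 15899 on the synaptic arrays and 19152 and 15870 on the non-synaptic arrays. The synaptic values lie inside the non-synaptic range, and the difference was -0.06 ± 0.18, with a ratio interval of 0.695 to 1.33. The name of the probe set read here marks probes shared by several transcripts. The second probe set of Upk3b gave -0.08 ± 0.18. It was the only one of the 16 on which the regions did not overlap, with 7740 and 7816 on the synaptic arrays and 8693 and 7821 on the non-synaptic arrays. Both synaptic arrays lay below both others on 9.98% of all probe sets tested and above both on 9.89%.

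Upk1b encodes uroplakin 1B, a tetraspanin. Its intensity was 4667 and 3941 on the synaptic arrays and 5470 and 4124 on the non-synaptic arrays, with a difference of -0.15 ± 0.24. The regions overlap, since the synaptic array of number 1 was above the non-synaptic array of number 2. The other 3 probe sets of Upk1b gave 0.17, -0.14 and -0.22, so their signs disagree. Those of 0.17 and -0.22 carry names that mark probes that can also match other transcripts. Lrrn4 encodes a leucine-rich repeat membrane protein, first described in neurons and found in mesothelium. Its intensity was 4120 and 6520 on the synaptic arrays and 4928 and 6064 on the non-synaptic arrays, with a difference of -0.08 ± 0.29. Here the arrays of number 2 were the high ones in both regions, the reverse of the other 9 genes.

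Wt1, the zinc finger transcription factor of the lining, had an intensity of 1984 and 1356 on the synaptic arrays and 2317 and 1477 on the non-synaptic arrays. The regions overlap, and the difference was -0.17 ± 0.34. The name of the Wt1 probe set marks probes shared by several transcripts. Slpi encodes a secreted inhibitor of serine proteases, which neutrophils and macrophages also make. Its intensity was 18960 and 11574 on the synaptic arrays and 20170 and 12501 on the non-synaptic arrays. Within a region the arrays of Slpi differed by 0.71 and 0.69 on the log2 scale, and the regions differed by -0.10 ± 0.35.

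The keratins had both the lowest and the highest differences of the 10 genes. Krt8 was at 3159 and 1984 on the synaptic arrays and at 3725 and 2565 on the non-synaptic arrays, a difference of -0.30 ± 0.33. Krt7 was at 2099 and 1807 on the synaptic arrays and at 2787 and 2040 on the non-synaptic arrays, a difference of -0.29 ± 0.26. In both genes the lowest array was synaptic and the highest non-synaptic, with the other two crossing between the regions.

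Krt18, the partner of Krt8, was at 1728 and 1470 on the synaptic arrays and at 2401 and 1431 on the non-synaptic arrays, a difference of -0.22 ± 0.33. Krt19, the smallest of these keratins, was at 3909 and 3235 on the synaptic arrays and at 3730 and 3295 on the non-synaptic arrays, a difference of 0.02 ± 0.22. For Krt18 the non-synaptic array of number 1 stands above the other 3, and for Krt19 the regions interleave. The other 2 probe sets of Krt8, whose names mark probes that can also match other transcripts, gave 0.02 ± 0.42 and 0.25 ± 0.54, against the negative value of the brightest one.

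**Figure D2:**
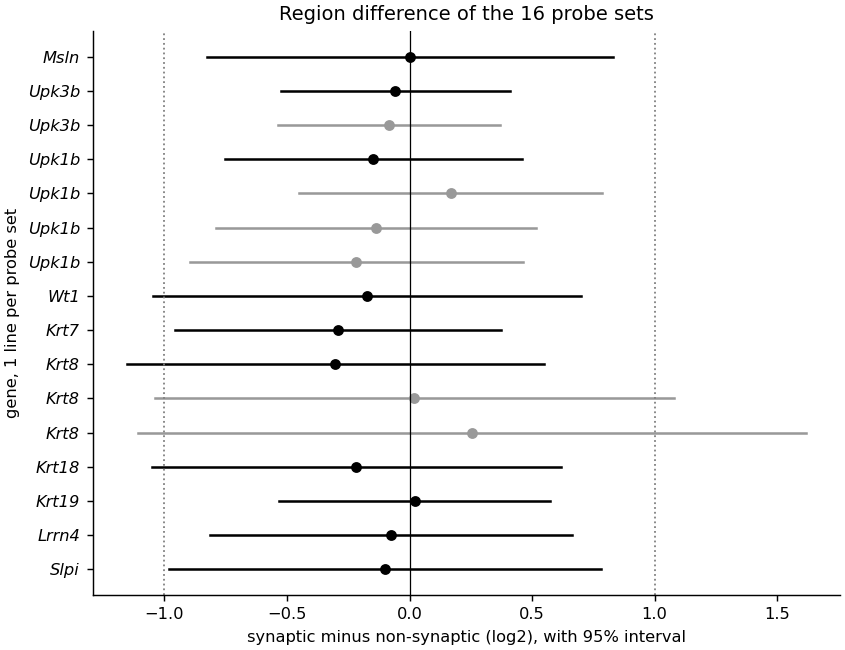
Synaptic minus non-synaptic difference (log2) of the 16 probe sets with its 95% interval from the limma fit. Black marks the probe set read for a gene, grey its others, and dotted lines a 2-fold difference in either direction. Every interval spans 0, those of Wt1, Krt18 and the 3 probe sets of Krt8 extend past 2-fold lower, and those of the 2 grey probe sets of Krt8 extend past 2-fold higher as well.

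These intervals come from the fit without the array number as a term. For 7 of the 10 genes the 95% interval lay within a 2-fold difference in both directions, as it did for 59.9% of all probe sets tested. The exceptions were Wt1, Krt8 and Krt18, with lower bounds of 0.484, 0.449 and 0.482 on the ratio of synaptic over non-synaptic. With the array number as a block, the intervals of all 3 lay within 2-fold, as did those of the other 7 genes. A p that misses the threshold does not show equal levels.

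The 10 genes differed more between the arrays numbered 1 and 2 than between the regions. Both arrays of number 1 lay above both arrays of number 2 for 9 of the 10 genes, and on 28.3% of all probe sets tested. Both lay below for 1 gene, Lrrn4, and on 33.0% of all probe sets tested. Counted over the 16 probe sets of these genes, they lay above on 13 and below on 1. The median difference of number 1 minus number 2 was 0.41 over the 10 genes and -0.03 over all probe sets, and it ran from -0.48 for Lrrn4 to 0.70 for Slpi. Its size exceeded that of the region difference for 10 of the 10 genes, and for 71.7% of all probe sets. Over the 16 probe sets of these genes this held for 15, all but the second of Upk3b. With each array centred on its median, a setting added after seeing the data, the counts were again 9 and 1 of the 10 genes. Their median was then 0.56 against 0.12 for all probe sets, of which 39.7% had number 1 above and 23.1% below. Other lists read on these arrays, described below, showed this too. Number 1 was above without overlap for 2 of 2 measured other uroplakins (median 1.02) and 2 of 2 markers of other epithelia (0.89). The same held for 2 of 3 liver markers (0.48) and 2 of 3 lung markers (0.53). Of 6 junction genes, 3 were above and 2 below (0.54). Fibroblast markers mostly went the other way, with 1 of 8 above and 5 below (-0.26). The labels do not say what the number stands for.

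**Figure D3:**
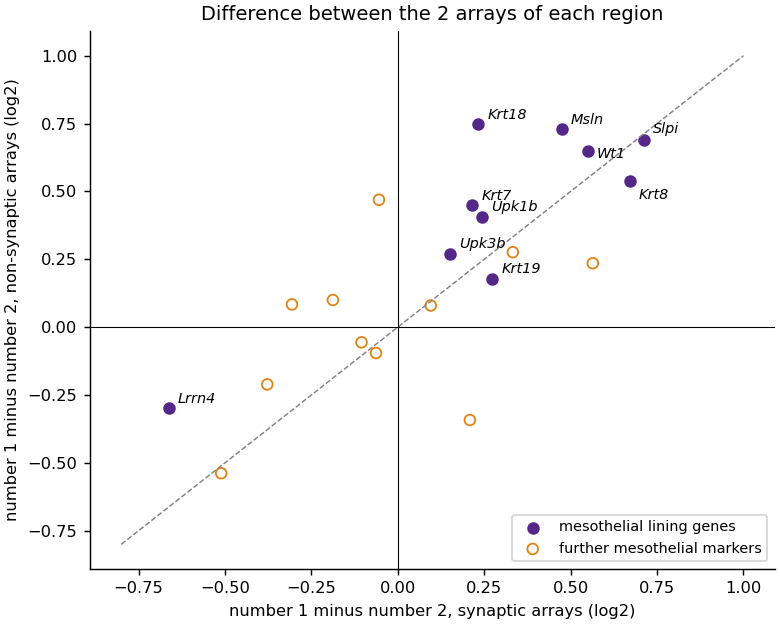
Number 1 minus number 2 (log2) in the synaptic arrays (horizontal axis) and in the non-synaptic arrays (vertical axis), with 1 point per gene; the dashed line marks equal differences. The mesothelial lining genes (filled) lie above 0 on both axes except Lrrn4, which lies below 0 on both, while the further mesothelial markers (open) lie on either side of 0 on each axis.

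Within number 1, the synaptic array was below the non-synaptic array for 9 of the 10 genes, with a median of -0.23, against 53.0% of all probe sets. Within number 2 it was below for 6 of the 10, with a median of -0.05, against 50.5% of all probe sets. Leaving out an array moved the median difference of the 10 genes with it. The median was -0.30 without number 1 and 0.02 without number 2 of the synaptic region, and 0.09 without number 1 and -0.40 without number 2 of the non-synaptic region. Its sign thus changed with the arrays kept. With 1 array left out, the regions hold unequal shares of numbers 1 and 2, so the difference between the numbers enters these medians.

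Another 13 genes known from mesothelium were listed beside the 10, and 11 passed the filter. In this list 0 genes passed the limma test in either direction, with a median difference of 0.01. An unadjusted limma p under 0.05 was found for 0 of the 11, beside 261 of the 26480 probe sets tested. The synaptic arrays were the higher ones without overlap for 2 of the 11, Bnc1 and Pdpn, and below for 1, Muc16, against the 9.89% and 9.98% of all probe sets. Bnc1, the zinc finger protein basonuclin, was at 2267 and 2122 on the synaptic arrays and at 1873 and 1772 on the non-synaptic arrays, a difference of 0.27 ± 0.22. Pdpn encodes podoplanin, which lymphatic vessels also carry, and differed by 0.26 ± 0.17, while the large mucin Muc16, which mesothelin binds, differed by -0.29 ± 0.22.

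Anxa8, a membrane-binding annexin, differed by -0.27 ± 0.27 and Podxl, a sialomucin also of vessels, by -0.10 ± 0.29. Over the 11 genes, 6 differences were above 0 and 5 below, and none of the 5 named passed the limma test (adjusted p = 0.9999 for each). Both arrays of number 1 were above both of number 2 for 2 of the 11, and below for 3, beside the 28.3% and 33.0% of all probe sets. The 2 genes below the filter were Calb2, which encodes calretinin and was at the floor on all 4 arrays, and the hyaluronan synthase Has1, at 863 and 338 on the synaptic arrays and 854 and 193 on the non-synaptic arrays.

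Keratins, Slpi and uroplakins are also known from other cells that a piece of diaphragm could carry, and markers of these were read on the same arrays. Of 7 markers of other epithelia, 2 passed the filter, Epcam and Elf3, and Esrp1 and Krt20 were at the floor on all arrays. Epcam, a surface protein of most epithelia, was at 1904 and 809 on the synaptic arrays and at 3347 and 1485 on the non-synaptic arrays, a difference of -0.85 ± 0.57. The name of its probe set marks probes that can also match other transcripts. Elf3, an epithelial transcription factor, was at 1384 and 1057 on the synaptic arrays and at 1254 and 735 on the non-synaptic arrays, a difference of 0.33 ± 0.37, so the signs of the 2 genes disagree. Both genes were higher on both arrays of number 1, as the lining keratins were, and their part in the keratin values was not tested. The summed intensity of this list was 4315 and 2838 on the synaptic arrays and 5555 and 2907 on the non-synaptic arrays.

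Of the 5 neutrophil markers on the array, 4 passed the filter. The calgranulin S100a8 was at 2247 and 1346 on the synaptic arrays and at 2748 and 1180 on the non-synaptic arrays, and so was high on the same arrays as Slpi. The name of its probe set marks probes shared by several transcripts. S100a9, the usual partner of S100a8, was low on the arrays of number 1. Ngp was high on them, at 1494 and 1210 on the synaptic arrays and 1603 and 1272 on the non-synaptic arrays. Ltf, at 512 and 291 on the synaptic and 613 and 532 on the non-synaptic arrays, was higher on number 1 within each region, with overlap. The summed intensity of the neutrophil list was 4678 and 3569 on the synaptic arrays and 5649 and 4074 on the non-synaptic arrays, and its part in the values of Slpi was not tested. Of the liver markers 3 of 7 and of the lung markers 3 of 5 passed the filter, and Fgb, of liver, and Scgb1a1, of lung, were at the floor on all arrays. Their sums lay between 1668 and 3099 for liver and between 2050 and 3241 for lung.

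The lists that did separate the regions on these arrays were of other cells. Markers of Schwann cells had the synaptic arrays on top without overlap for 5 of the 5 measured genes, with 1 past the limma test, and genes of the synapse for 3 of 5. Fat cell markers lay below for 4 of the 4 measured genes, with 1 past the test. Of all probe sets tested, 9.89% lay above and 9.98% below without overlap, and 0.00378% were called higher and 0.00755% lower. These lists were chosen with earlier results of the same data known, so they are no independent check of the comparison. The summed intensity of the 10 lining genes was 64580 and 52325 on the synaptic arrays and 71563 and 53520 on the non-synaptic arrays, so the ranges overlap, whereas that of the fat cell list was 112164 and 107267 against 133250 and 131035. Most of the fat cell sum was Fabp4, which differed by -0.12 ± 0.13, while the less bright Adipoq differed by -5.43 ± 0.26. All 8 markers of skeletal muscle passed the filter, and by limma 0 passed over all probe sets. At an unadjusted limma p under 0.05 was 1 of the 8, beside 261 of the 26480 probe sets tested. That gene was the fast myosin Myh4, lower in the synaptic region.

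**Figure D4:**
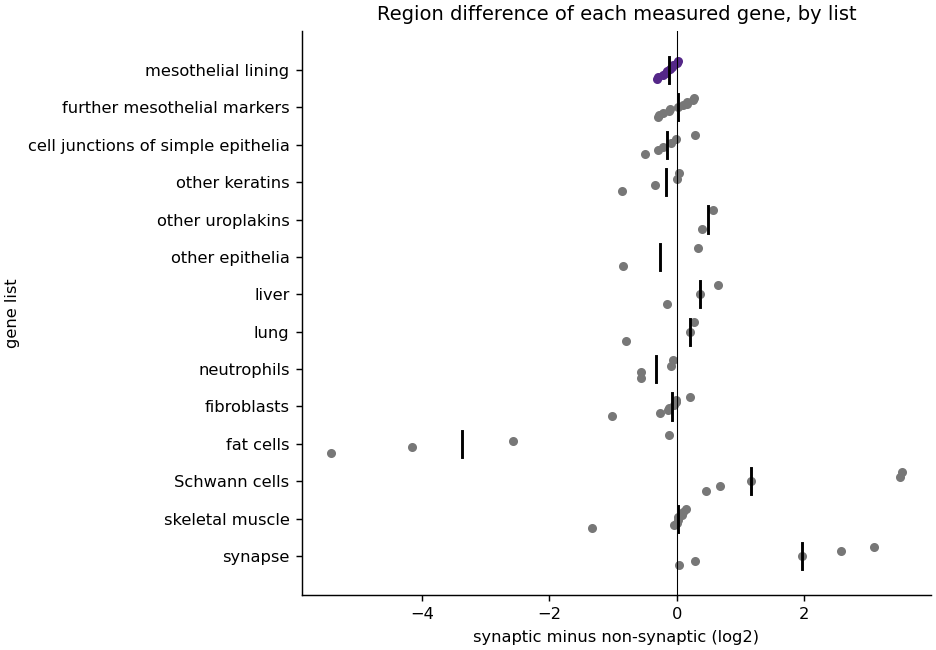
Synaptic minus non-synaptic difference (log2) of each measured gene (points) in the mesothelial lining list and in each other list, with the list's median as a vertical bar. The lining genes lie between -0.30 and 0.02, while Schwann cell and synapse genes lie above 0 and fat cell genes below it; fat cell genes at or near the floor on the synaptic arrays are drawn at their fitted value.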

How the data were processed

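Per the deposited table, values are linear intensities, 1 per probe set, on 4 one-colour arrays. How the authors scanned, summarised and scaled them is not stated in the labels. The 2% trimmed mean was 2500.0 on each array, so the authors' scaling was kept. After such a scaling, a shift common to most transcripts stays hidden.

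A floor of 158.9 (20th percentile over the table) was applied before the log2. Control probe sets (64) and those with a mean log2 below 8.87, the 40th percentile of all values, were left out, leaving 26480. A gene was read from its brightest probe set, and symbols were updated by Entrez identifier with RefSeq (GRCm38.p6). The test was limma 3.58.1 under R 4.3.3 (lmFit, eBayes with an intensity trend, 2-sided, Benjamini-Hochberg over all probe sets, threshold 0.05), with 2 residual and 3.16 prior degrees of freedom. The procedure was tested on simulated data with independent noise on each value and no difference between array numbers. The arrays here do differ by number, so the simulation cannot tell how the test behaves on them. With 2 against 2 arrays the smallest exact permutation p is 0.333, so no such test was run. The floor held 18.7% to 21.3% of each array's probe sets.

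The members, the other lists and the alternatives were chosen with earlier results of these data known. Besides the 10 members, the rule allowed up to 4 genes of smallest p and 2 of highest mean to be named from each list. Genes named as being below the filter or at the floor, and those given beside the keratins and Slpi, were named after their values were seen. Alternatives were other normalizations, filters, floors and variance priors, the replicate block, another threshold, the mean of a gene's probe sets and leaving out each array.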

Additional observations from a re-analysis of the deposited data

How the results depend on the processing

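In none of the 12 other settings did any of the 10 lining genes pass the limma test (lowest adjusted p 0.843, for Krt8 with the replicate block), nor at an adjusted p under 0.10. The other filters, floors and variance prior and the replicate block could not move the median difference. All members lay above each floor and filter, and the design is balanced. The median was -0.130 with quantile normalization, -0.104 with median centring and -0.080 with the mean of a gene's probe sets, against -0.124. Those 3 values lay within the spread between arrays (0.138 on the log2 scale) of the main one. Without each array in turn the median difference ran from -0.404 to 0.0938. The number of lining genes with the regions apart then ran from 0 to 3 above and from 0 to 8 below. Those counts set 1 array against 2, which separate more easily than 2 against 2. Their share over all probe sets was not counted, so they are no result about the lining genes. Differences ran from -0.59 to 0.16 for Krt18, -0.12 to 0.16 for Krt19, -0.639 to 0.0318 for Krt8, -0.41 to 0.25 for Lrrn4, -0.36 to 0.37 for Msln, -0.46 to 0.26 for Slpi, -0.35 to 0.0565 for Upk1b, -0.19 to 0.0779 for Upk3b, -0.50 to 0.15 for Wt1 and -0.37 to 0.17 for Podxl. Without changing sign, Krt7 ran from -0.52 to -0.07 and Anxa8 from -0.44 to -0.11. Thus 9 of the 10 lining genes changed sign in some setting, all but Krt7, always on leaving out an array. In such a fit the difference between numbers 1 and 2 enters the region difference. With quantile normalization, added after seeing the data, both arrays of number 1 were again above both of number 2 for 9 lining genes and below for 1, beside 33.2% and 28.9% of all probe sets.

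Over all probe sets, 1 was called higher and 2 lower. The higher count was 3 with the filter at the 60th percentile and 6 with median centring, and it was 0 without a filter, without an intensity trend and with a floor at the 40th percentile. The lower count was 0 in those last 3 settings. Without each array in turn the counts ran from 0 to 6 higher and from 0 to 5 lower. The cause was not tested.

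Whether same-numbered arrays are paired is not known: the labels do not say, and 2 pairs are too few to decide it. The median absolute log2 difference was 0.204 and 0.158 between same-numbered arrays of different regions, and 0.351 and 0.298 between arrays of one region. The deviations of same-numbered arrays from their region's mean had a correlation of 0.634 over probe sets. With the replicate block, 56 probe sets were called higher and 18 lower, and the standard errors of the lining genes lay between 0.105 and 0.207, in place of 0.183 to 0.347. The 95% interval was then within 2-fold for 10 of the 10, and the lowest unadjusted limma p was 0.073, for Krt8. Signal near the floor limits only weakly expressed genes, and the lining genes lay above it on all arrays.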

Other observations

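Members of the same families that are not usual markers of the lining were also read. Upk1a and Upk2, uroplakins of the bladder, differed by 0.57 ± 0.44 and 0.40 ± 0.70 on the log2 scale and neither passed the limma test (SE, n = 2 arrays per region), and the second of these ran from 8.25 to 10.24 over the non-synaptic arrays alone. Of 8 other keratins 4 passed the filter. Krt14, a keratin of basal epithelial cells, was at log2 values of 10.01 and 9.06 on the synaptic arrays and 10.69 and 10.08 on the non-synaptic arrays, a difference of -0.86 ± 0.43 that did not pass (limma adjusted p = 0.9999). The name of its probe set marks probes that can also match other transcripts. Krt5, the usual partner of Krt14, differed by 0.003 ± 0.34.

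Among 12 genes of epithelial cell junctions, 6 passed the filter and 0 passed the limma test. At an unadjusted limma p under 0.05 were 0 of the 6, beside 261 of the 26480 probe sets tested. The adherens junction gene Cdh3 differed by -0.50 ± 0.65, and plakoglobin, encoded by Jup, by 0.29 ± 0.40. Tjp1, a scaffold of tight junctions also present in vessels, differed by -0.01 ± 0.30.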
